A study of Mus musculus with 6 samples.

Results

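Arhgap20, Nsg2, Nod1, Prg4 and Ift80 are 5 of the 49585 genes in the expression table of this study. Each was picked by name from the genes with the largest falls from WT to Bach2-cKO regulatory T cells and lies outside the classical lymphocyte pathways. Their own difference between the groups is therefore a description here and carries no test. All 5 passed the filter on low values used for testing, which asked for at least 1 FPKM (a read count corrected for gene length and library size) in at least 3 libraries and left 13766 genes. Arhgap20 passed it through the WT libraries alone.

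The cells were regulatory T cells (Tregs) of the spleen, a CD4 lineage that depends on the factor FOXP3 and holds immune responses back, from C57BL/6 mice aged 7 weeks. They were sorted as CD4-positive, YFP-positive cells without B220, and CD25 is added to this gate in the series' design text, and were kept on plate-bound CD3 and CD28 antibodies for 24 hours before poly(A) RNA was sequenced. There were 3 libraries from mice labelled WT and 3 from mice labelled Bach2-cKO, which the design text calls deficient in the transcriptional repressor BACH2. The sources used here do not give the allele, the Cre driver, the source of YFP or whether each library is a separate mouse. The p-values therefore reflect only library-to-library spread, which may be technical.

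The 5 proteins work in unrelated places. ARHGAP20 is a GTPase-activating protein, which switches small GTPases off, and is bound by RAP1. NSG2 is a small endosomal membrane protein, best known from neurons. NOD1 is a cytosolic sensor of bacterial peptidoglycan fragments that recruits the kinase RIPK2 and activates NF-kappaB. PRG4, or lubricin, is a secreted mucin-like glycoprotein that lubricates joint surfaces and carries somatomedin B and hemopexin domains. IFT80 is a subunit of complex B of intraflagellar transport, which carries cargo along cilia. T cells build no primary cilium, but use parts of this machinery at the immune synapse.

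The promoters are shown first because the 5 genes were lower together. The RefSeq promoter table (GRCm38.p6) gave a window for Arhgap20, Nsg2 and Nod1, and for Prg4 and Ift80 none is shown. Each line is the gene's own strand, 5′ to 3′, and ends before the first transcribed base of either RefSeq or the deposited gene model. Capitals mark matches to the motifs searched on both strands. The Arhgap20 stretch is chr9:51765101-51765336 (plus strand), the Nsg2 stretch chr11:32000169-32000418 (plus strand) and the Nod1 stretch chr6:54972613-54972862 (minus strand).
Arhgap20: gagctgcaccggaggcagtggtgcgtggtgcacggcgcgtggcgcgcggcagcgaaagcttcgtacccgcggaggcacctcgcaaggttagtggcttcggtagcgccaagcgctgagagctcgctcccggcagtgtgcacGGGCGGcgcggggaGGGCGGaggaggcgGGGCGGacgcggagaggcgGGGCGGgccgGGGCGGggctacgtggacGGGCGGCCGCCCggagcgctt
Nsg2: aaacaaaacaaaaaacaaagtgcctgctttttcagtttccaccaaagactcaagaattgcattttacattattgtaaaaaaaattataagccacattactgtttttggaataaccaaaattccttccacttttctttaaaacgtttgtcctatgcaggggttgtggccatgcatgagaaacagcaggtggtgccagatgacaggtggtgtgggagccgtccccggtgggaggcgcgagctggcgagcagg
Nod1: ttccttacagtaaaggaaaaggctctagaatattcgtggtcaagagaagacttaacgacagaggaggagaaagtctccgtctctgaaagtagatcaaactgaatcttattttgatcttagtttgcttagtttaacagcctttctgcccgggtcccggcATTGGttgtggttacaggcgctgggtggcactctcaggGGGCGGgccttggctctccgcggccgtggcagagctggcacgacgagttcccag

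The 3 promoters differed in composition. The Arhgap20 window of 300 bases was 77.0% G or C and held 48 CpG dinucleotides, against medians of 52.7% and 7 over all 32851 windows of the table. The Nod1 window was at 54.7% with 15 CpG, and the Nsg2 window at 47.0% with 10 CpG. The motif GGGCGG, the GC box, occurred 7 times in the printed Arhgap20 stretch, where a plus-strand and a minus-strand match adjoin, and 1 time in that of Nod1. Of all windows 35.7% hold it. The motif CCAAT occurred 1 time, in Nod1 on the opposite strand, and 37.4% of all windows hold it. TGANTCA, the core of AP-1 sites and of the elements that BACH2 binds with small MAF proteins, had 0 matches in these 3 windows, and 7.81% of all windows hold it. TGACGTCA, GTAAACA and CTTTGAT also had 0 matches there, and 1.79%, 3.65% and 3.73% of all windows hold them.

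Arhgap20, on chromosome 9 from 51765337 to 51853856 (GRCm38), was at 15.3, 10.8 and 15.1 FPKM in WT replicates 1, 2 and 3. In Bach2-cKO replicates 1, 2 and 3 it was at 0.761, 0.699 and 0.874 FPKM. All WT libraries were high, and the lowest of them lay 12.4-fold above the highest Bach2-cKO library. The WT mean of 13.7 ± 2.52 and the Bach2-cKO mean of 0.778 ± 0.0886 FPKM (SD, n = 3 each) were 17.7-fold apart, which left 5.66% of the WT level. The reads behind the Bach2-cKO values numbered 66, 70 and 76. On log2(FPKM + 1), the scale of the tests, the difference was -3.04, which understates the fold because the Bach2-cKO values lie below the added 1.

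Nsg2, on chromosome 11 from 32000463 to 32059202, was at 74.5, 75.2 and 70.9 FPKM in the WT libraries and at 10.9, 8.35 and 10.7 FPKM in the Bach2-cKO libraries. The WT values were the most even of the 5 genes, with the highest 1.06 times the lowest. The means, 73.5 ± 2.34 and 9.99 ± 1.43 FPKM (SD, n = 3 each), differed 7.36-fold, or by -2.77 on the log2 scale. In WT Nsg2 stood above 86.0% of the tested genes, and in Bach2-cKO above 39.6%.

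Nod1, on chromosome 6 from 54923949 to 54972612, was at 56.7, 49.1 and 49.4 FPKM in the WT libraries and at 11.3, 9.18 and 7.69 FPKM in the Bach2-cKO libraries. The groups did not overlap, and relative to its mean the Bach2-cKO group was the more spread. Nod1 averaged 51.7 ± 4.30 FPKM in WT and 9.41 ± 1.84 in Bach2-cKO (SD, n = 3 each), 5.50-fold apart and -2.35 on the log2 scale.

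Prg4, on chromosome 1 from 150449412 to 150466165, had the lowest WT mean of the 5 genes in FPKM as deposited. It was at 8.62, 11.6 and 8.05 FPKM in the WT libraries and at 1.26, 1.16 and 1.01 FPKM in the Bach2-cKO libraries, the latter from 85, 90 and 68 reads. WT replicate 2 was the highest, and the groups did not overlap. Prg4 averaged 9.41 ± 1.88 FPKM in WT and 1.14 ± 0.128 in Bach2-cKO (SD, n = 3 each), 8.25-fold apart and -2.27 on the log2 scale.

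Ift80, on chromosome 3 from 68892499 to 69004570, had the highest FPKM of the 5 genes in both groups. It was at 169.5, 143.5 and 153.0 FPKM in the WT libraries and at 29.2, 29.1 and 39.3 FPKM in the Bach2-cKO libraries. Bach2-cKO replicate 3 was the highest of its group and still 3.66-fold below the lowest WT library. Ift80 averaged 155.3 ± 13.1 FPKM in WT and 32.5 ± 5.83 in Bach2-cKO (SD, n = 3 each), 4.78-fold apart and -2.23 on the log2 scale, which left 20.9% of the WT level.

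**Figure D1:**
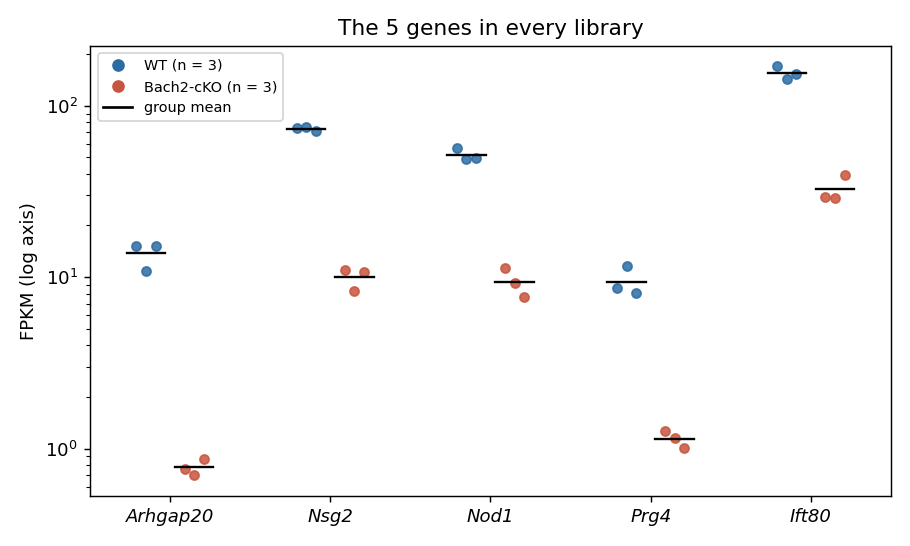
FPKM of the 5 genes in each library on a log axis, with WT in blue, Bach2-cKO in red and a bar at each mean of 3 libraries. No Bach2-cKO library reaches a WT library for any of the 5 genes, and the gap runs from 3.66-fold for Ift80 to 12.4-fold for Arhgap20.

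In bulk RNA, fewer cells that express a gene and less of its RNA per cell cannot be told apart. By size of fall on the log2 scale, Arhgap20, Nsg2, Nod1, Prg4 and Ift80 ranked 4, 8, 11, 12 and 14 among the tested genes. The gene just after Ift80 was Ifit1bl1 at -2.20, and the gene just before Arhgap20 was Gata1 at -3.13. As background, 8.31% of all tested genes passed as lower (limma, adjusted p under 0.05), and 20.1% had all Bach2-cKO values below all WT values. Levels between genes depend on the gene length used by the authors. The deposited Ift80 values fit whole reads at a length of 2520 bases, where its merged GENCODE M21 exons span 12428 bases. At that annotated length the WT mean would be 31.5 FPKM. For Arhgap20 the 2 lengths were 3132 and 12685 bases. At annotated lengths the WT mean of Arhgap20 would be 3.39 FPKM, below that of Prg4 at 5.35 FPKM. The folds between group means do not depend on the lengths. The differences and ranks on log2(FPKM + 1) do, through the added 1, most for genes at low FPKM. At its annotated length Arhgap20 would be at 3.39 FPKM in WT and 0.192 in Bach2-cKO, so its log2 difference would be smaller. Ranks at annotated lengths were not computed.

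Genes that adjoin Ift80 were lower as well. Smc4, which encodes a core subunit of the condensins that compact chromosomes, starts 167 bases from the start of Ift80 and runs the other way (chromosome 3, 69004738 to 69034623). It was at 505.0, 475.0 and 462.7 FPKM in the WT libraries and at 186.5, 181.6 and 214.4 FPKM in the Bach2-cKO libraries, far apart. Smc4 fell from 480.9 ± 21.8 to 194.2 ± 17.7 FPKM (SD, n = 3 each), or by 1.31 on the log2 scale (SE 0.079, limma adjusted p = 0.000206). The uncharacterised gene 1110032F04Rik, 20335 bases from the other end of Ift80, was at 13.7, 14.9 and 14.1 FPKM in WT and at 4.54, 4.31 and 4.13 FPKM in Bach2-cKO. It fell by 1.52 on the log2 scale (SE 0.089, limma adjusted p = 0.000203). Trim59, which encodes a membrane-anchored TRIM protein and ends 664 bases beyond Smc4, was at 122.4, 98.3 and 103.4 FPKM in WT and at 64.8, 61.5 and 74.0 FPKM in Bach2-cKO. Its fall was smaller, by 0.68 on the log2 scale (SE 0.10, limma adjusted p = 0.00504).

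The next genes outward did not pass. Kpna4, an importin gene 62578 bases from Ift80, was at 51.8 ± 2.10 and 50.5 ± 4.72 FPKM (SD, n = 3 each; limma adjusted p = 0.768). Il12a, a cytokine subunit gene on the other side, was at 15.9 ± 2.86 and 18.1 ± 1.73 FPKM (SD, n = 3 each; limma adjusted p = 0.390). Of the 10 tested genes within 250 kb of Ift80, 5 fell, or 50%, beside the 8.31% of all tested genes. The other 2 that fell were the weakly expressed Gm17641 and the pseudogene Gm20691 inside Ift80 (limma adjusted p = 0.0452 each), and each missed the threshold in 9 of 14 alternative settings. Gm17641 overlaps 1110032F04Rik in position, on the opposite strand, and Gm20691 lies on the strand of Ift80. Whether counting used strand is not given, so the fall of Gm17641 may not be separate from that of 1110032F04Rik. Gm20691 shares no exon with Ift80, and whether its fall is separate from that of Ift80 was not tested. The pseudogenes Gm20689 and Gm18588, likewise inside Ift80 on its strand and sharing no exon with it, had log2 differences of 0.19 and 0.12 and did not pass. Smc4 and 1110032F04Rik passed in all 14 settings, and Trim59 in 13, all but the fit with a B cell marker score (limma adjusted p = 0.215). In a wider window of 1000 kb, chosen after the values were seen, 1 more gene fell, the phosphatase gene Ppm1l at 312290 bases, by 0.40 (limma adjusted p = 0.0334). It lost the call without any single library other than WT replicate 2.

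**Figure D2:**
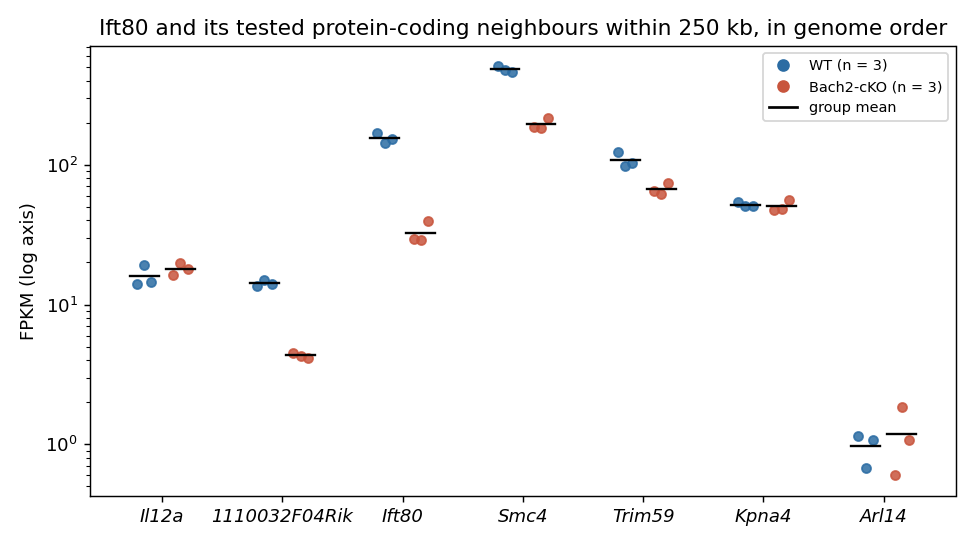
FPKM per library on a log axis for Ift80 and the tested protein-coding genes within 250 kb, in genome order, with WT in blue, Bach2-cKO in red and bars at the means of 3 libraries. The groups separate for 1110032F04Rik, Ift80, Smc4 and Trim59, and overlap for Il12a, Kpna4 and Arl14.

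Among 7 other condensin subunits, listed after the Smc4 values were seen, 0 passed by limma, with 1 lower and 2 higher at an unadjusted p under 0.05. By limma-voom on recovered reads 1 was higher. Their median log2 difference was 0.34, against -0.017 over all tested genes. Smc2, the direct partner of SMC4, was at 24.9 ± 4.71 and 34.4 ± 5.45 FPKM (SD, n = 3 each; limma adjusted p = 0.0906). Without Bach2-cKO replicate 3, 4 of the 7 were higher, and without WT replicate 3, 1 was. Mir15b and Mir16-2 lie within Smc4, and mature microRNAs carry no poly(A) tail for these libraries to capture.

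Around Nsg2, 8 genes within 250 kb were tested and 0 passed by limma, with 1 lower at an unadjusted p under 0.05 and 0 by limma-voom. Cpeb4, a translation regulator gene 64828 bases away, was at 14.1 ± 1.02 and 14.3 ± 0.760 FPKM (SD, n = 3 each). Rhbdf1 had an adjusted p of 0.124 by limma, and 0.0402 without Bach2-cKO replicate 1. Around Prg4, 3 genes were tested and 0 passed by limma, with 1 higher at an unadjusted p under 0.05 and 0 by limma-voom. Prg4 overlaps Tpr, a nuclear pore gene on the opposite strand, by 204 exonic bases. Tpr was at 164.6 ± 5.98 and 166.3 ± 5.86 FPKM (SD, n = 3 each; limma adjusted p = 0.894). The sources used here do not say whether counting used strand, and without it reads of the shared bases cannot be told apart.

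Around Nod1, 5 genes were tested. Gars, the glycyl-tRNA synthetase gene, rose from 100.5 ± 7.58 to 136.7 ± 5.37 FPKM (SD, n = 3 each), or by 0.44 on the log2 scale (SE 0.070, limma adjusted p = 0.00652), and 7.02% of all tested genes passed as higher. With the B cell marker score the Gars difference was 0.27 and did not pass (limma adjusted p = 0.249). Mturn, 220097 bases away, fell by 0.76 (SE 0.19, limma adjusted p = 0.0355) and lost the call without WT replicate 1 or 2 or Bach2-cKO replicate 1 or 2. The nearer Ggct and Znrf2 had log2 differences of -0.25 and -0.21 and did not pass.

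Around Arhgap20, 2 genes were tested and 0 passed by limma, with 1 lower at an unadjusted p under 0.05 and 0 by limma-voom. Fdx1, a mitochondrial ferredoxin gene, had a log2 difference of -0.32 (limma adjusted p = 0.0613, and 0.0350 without Bach2-cKO replicate 3), and Rdx, the radixin gene, of -0.076 (limma adjusted p = 0.491). The antisense gene Arhgap20os shares 162 exonic bases with Arhgap20 and was too low to be tested. It was at 1.34, 0.565 and 1.52 FPKM in the WT libraries, from 81, 24 and 58 reads. It had 0 reads in each Bach2-cKO library, where 3 reads would give 0.0682 to 0.0788 FPKM, counting error only. If counting did not use strand, which is not given, its reads in the shared bases cannot be told from those of Arhgap20. Over all 5 loci 6 of 28 tested neighbours fell (21.4%, beside 8.31% of all tested genes), 5 of them around Ift80, and 1 rose. In the wider window of 1000 kb, 7 of 60 tested genes fell (11.7%), 6 of them around Ift80. There 4 rose, 3 of them around Arhgap20.

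**Figure D3:**
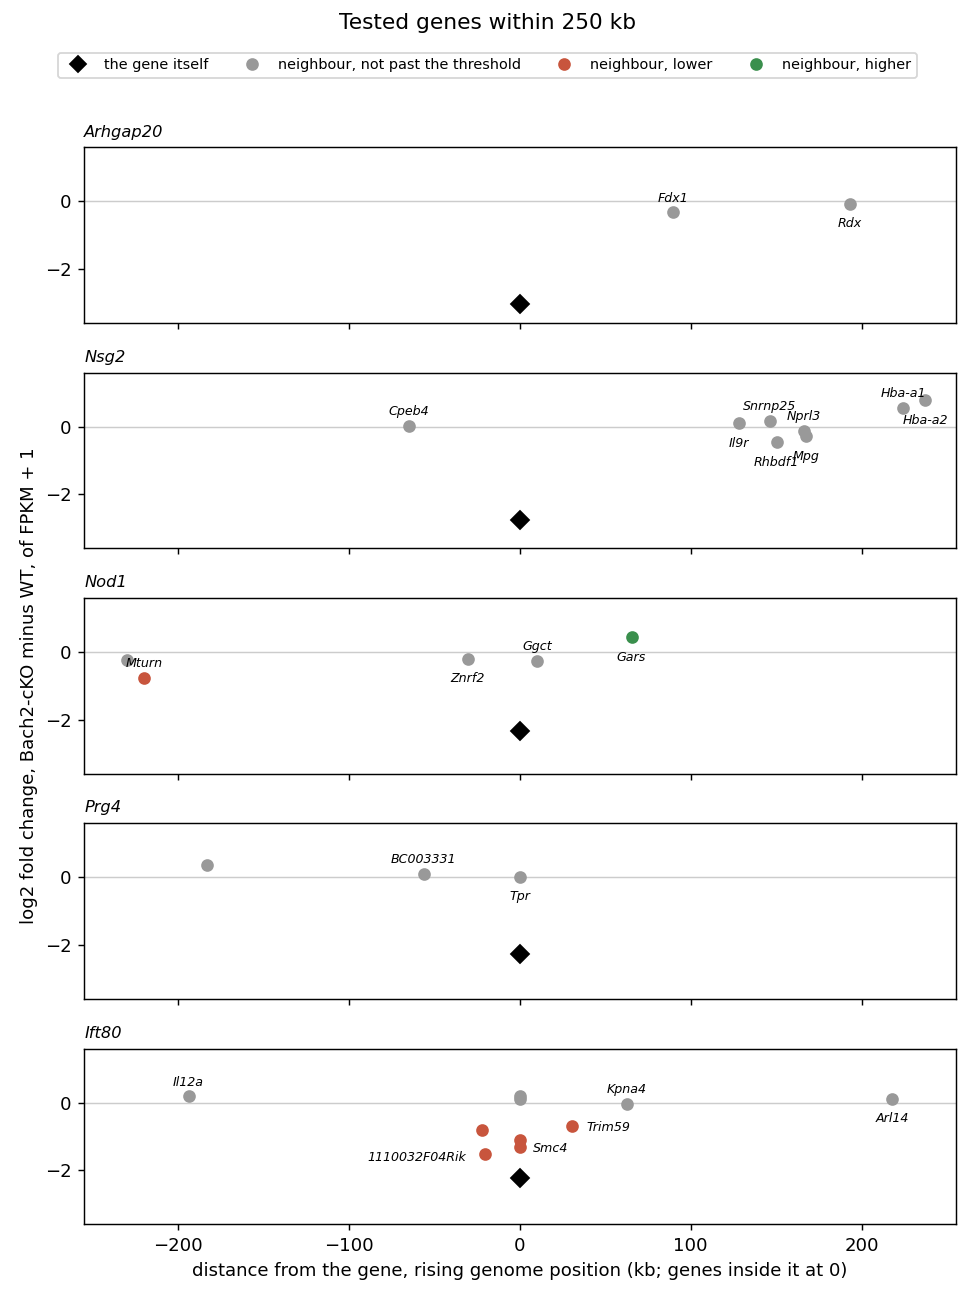
Log2 fold change (Bach2-cKO minus WT, of FPKM + 1) of each tested gene within 250 kb against its distance in kb, 1 panel per gene, with the gene itself as a black diamond at 0. Red points passed as lower and green as higher, and 5 of the 6 red points lie around Ift80.

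Relatives of the 5 genes came from a short list. Tagap, a GTPase-activating protein gene of T cells, was at 36.1, 35.3 and 42.7 FPKM in WT and at 26.1, 24.1 and 26.4 FPKM in Bach2-cKO. It fell by 0.55 on the log2 scale (SE 0.088, limma adjusted p = 0.00665, and 0.244 with the B cell marker score), while Tagap1 was at 18.5 ± 2.22 and 16.3 ± 2.32 FPKM (SD, n = 3 each; limma adjusted p = 0.405). Nsg1 and Caly, the other genes of the NSG family, were near 0, at most 0.384 and 0.192 FPKM in any library. Nod2, the sensor of muramyl dipeptide, was at 0.460 to 1.05 FPKM and was not tested. Nlrc3, an inhibitory receptor of the wider family, was at 25.1 ± 4.46 and 25.2 ± 2.71 FPKM (SD, n = 3 each; limma adjusted p = 0.956). Vtn, the vitronectin gene, which shares domains with Prg4, was at most 0.0321 FPKM. Ift172 and Ift122, which encode WD40-repeat proteins as Ift80 does, had log2 differences of -0.16 and -0.13 and did not pass.

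Ift80 stood first in level among the genes of its complex in WT. The next, Ift20, was at 51.8 ± 2.55 FPKM in WT and 51.9 ± 1.16 in Bach2-cKO (SD, n = 3 each). In Bach2-cKO it was the third, after Ift20 and after Ift52 at 38.4 FPKM. At annotated lengths Ift80 and Ift20 lay close in WT, at 31.5 and 30.8 FPKM, and in Bach2-cKO Ift80 was at 6.60 FPKM. Of 17 other complex B genes 13 were tested and 0 passed by limma, with 3 lower at an unadjusted p under 0.05 and 1, Traf3ip1, lower by limma-voom. Their log2 differences ran from -0.38 for Traf3ip1 to 0.22 for Ift22, with a median of -0.16 against -0.017 over all tested genes. Of 32 genes of complex A, the cilium motors and the BBSome, 26 were tested and 1 fell (3.85%, beside 8.31% of all tested genes), with a median of -0.13. That gene was Bbs2, a BBSome subunit gene, which went from 7.00 ± 0.352 to 4.41 ± 0.303 FPKM (SD, n = 3 each; limma adjusted p = 0.0107, and 0.0520 without WT replicate 1). Dync2h1, the heavy chain gene of the cilium's dynein motor, had a log2 difference of -0.58 (limma adjusted p = 0.0557, and 0.0374 without WT replicate 2).

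**Figure D4:**
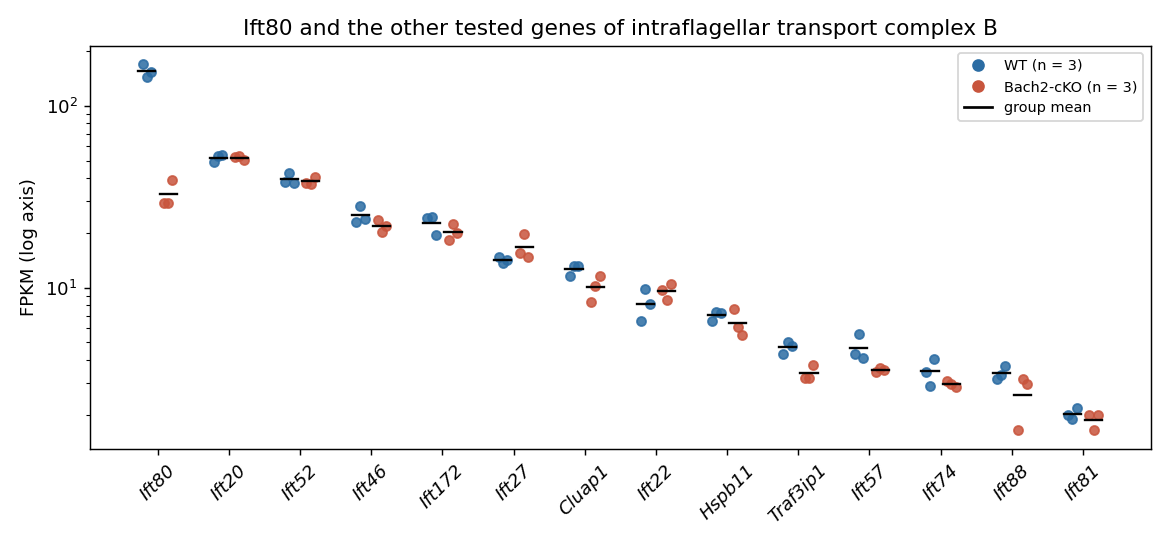
FPKM per library on a log axis for Ift80 and the 13 other tested genes of intraflagellar transport complex B, ordered by WT mean, with WT in blue, Bach2-cKO in red and bars at the means of 3 libraries. Ift80 is first in WT and the third in Bach2-cKO. Its groups lie the farthest apart of the 14 genes, which its choice for a large fall in this contrast made likely.

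Of 32 genes of NOD1 and NOD2 signalling 30 were tested. Of these 2 rose (6.67%, beside 7.02% of all tested genes) and 4 fell (13.3%, beside 8.31%), with a median log2 difference of -0.013, so the counts say little about the group and the values are those of single genes. Slc15a3, a lysosomal transporter of peptides that include NOD ligands, was at 14.9, 15.7 and 16.5 FPKM in WT and at 45.6, 38.6 and 37.7 FPKM in Bach2-cKO. It rose by 1.32 on the log2 scale (SE 0.089, limma adjusted p = 0.000278) and passed in all 14 alternative settings. Tnfaip3, which encodes the NF-kappaB inhibitor A20, fell by 0.43 (limma adjusted p = 0.0101), and Birc2, a ubiquitin ligase gene, by 0.30 (limma adjusted p = 0.0108, and 0.0521 without Bach2-cKO replicate 2). Otulin rose by 0.49 and lost the call without WT replicate 1 or 3 or Bach2-cKO replicate 1 or 2. Rbck1 and Rela fell by 0.23 and 0.22, and each kept the call without 1 library only, Bach2-cKO replicate 3 for Rbck1 and WT replicate 3 for Rela. Ripk2, the kinase that NOD1 recruits, was at 11.0 ± 1.87 and 8.80 ± 0.573 FPKM (SD, n = 3 each; limma adjusted p = 0.183).

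In the family of NOD-like receptors and their partners, 12 of 20 were tested, 3 rose (25%, beside 7.02% of all tested genes) and 1 fell (8.33%, beside 8.31%), with a median of 0.20. With 1 library left out, 0 to 2 rose. Ciita, the activator of MHC class II genes, which B cells also express, rose by 1.16 (limma adjusted p = 0.0112, and 0.0510 without WT replicate 1). Pycard, the inflammasome adaptor gene, fell by 0.48 (limma adjusted p = 0.0115, and 0.0504 without Bach2-cKO replicate 2). Casp1 rose by 0.49 and lost the call without WT replicate 1 or 3 or Bach2-cKO replicate 2, and Naip6 rose by 0.63 and lost it without any single library.

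Of 57 genes of GTPase-activating proteins in the family of ARHGAP20, 41 were tested. Of these 2 rose (4.88%, beside 7.02% of all tested genes) and 5 fell (12.2%, beside 8.31%), with a median of -0.0069, shares near those of all genes. Arhgap9, a gene of this family in blood cells, was at 136.3, 139.0 and 133.3 FPKM in WT and at 102.5, 95.0 and 104.4 FPKM in Bach2-cKO, and fell by 0.43 (SE 0.058, limma adjusted p = 0.00343). Abr, which encodes a family member active on RAC, rose by 0.44 (limma adjusted p = 0.00488). Arhgap15 and Sh3bp1 fell by 0.42 and 0.32 and Arhgap21 rose by 0.42, and these 3 lost the call without WT replicate 1 or Bach2-cKO replicate 2. Of 27 genes of RAP1 and its regulators, all tested, 2 rose (7.41%) and 3 fell (11.1%), with a median of -0.070, again near the shares of all tested genes. Rassf5, which encodes the RAP1 effector RAPL, was at 96.5, 97.6 and 96.6 FPKM in WT and at 67.1, 67.9 and 70.5 FPKM in Bach2-cKO. It fell by 0.50 (SE 0.052, limma adjusted p = 0.00126), and the adaptor gene Fyb fell by 0.68 (limma adjusted p = 0.00391). Rap1gap, which encodes an inactivator of RAP1, rose from 1.995 ± 0.557 to 7.05 ± 3.15 FPKM (SD, n = 3 each; limma adjusted p = 0.0254) and lost the call without WT replicate 1 or 2 or Bach2-cKO replicate 1 or 2. Rap1a, which encodes RAP1A itself, rose by 0.24 and lost the call without any of the same 4 libraries, and Rapgef4, an exchange factor gene, fell by 0.73 and lost it without WT replicate 1 or 2 or Bach2-cKO replicate 1.

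Of 20 endosomal genes listed with Nsg2, 15 were tested and 3 rose (20%, beside 7.02% of all tested genes), with a median of 0.00077. Ehd1, which drives recycling from endosomes, went from 75.3 ± 6.30 to 117.9 ± 8.49 FPKM (SD, n = 3 each), a rise of 0.64 (SE 0.081, limma adjusted p = 0.00275). Sorl1 and Ehd4 rose by 0.27 and 0.38, and each kept the call without 1 library only, Bach2-cKO replicate 3 for Sorl1 and WT replicate 2 for Ehd4. Among 32 matrix proteoglycans and proteins that share the domains of PRG4, 20 stayed below 1 FPKM in every library and 9 were tested, with a median of 0.0060. Srgn, the gene of the granule proteoglycan serglycin, rose by 0.56 (limma adjusted p = 0.00460), and Agrn, the gene of the heparan sulfate proteoglycan agrin, fell by 0.74 (limma adjusted p = 0.00408).

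**Figure D5:**
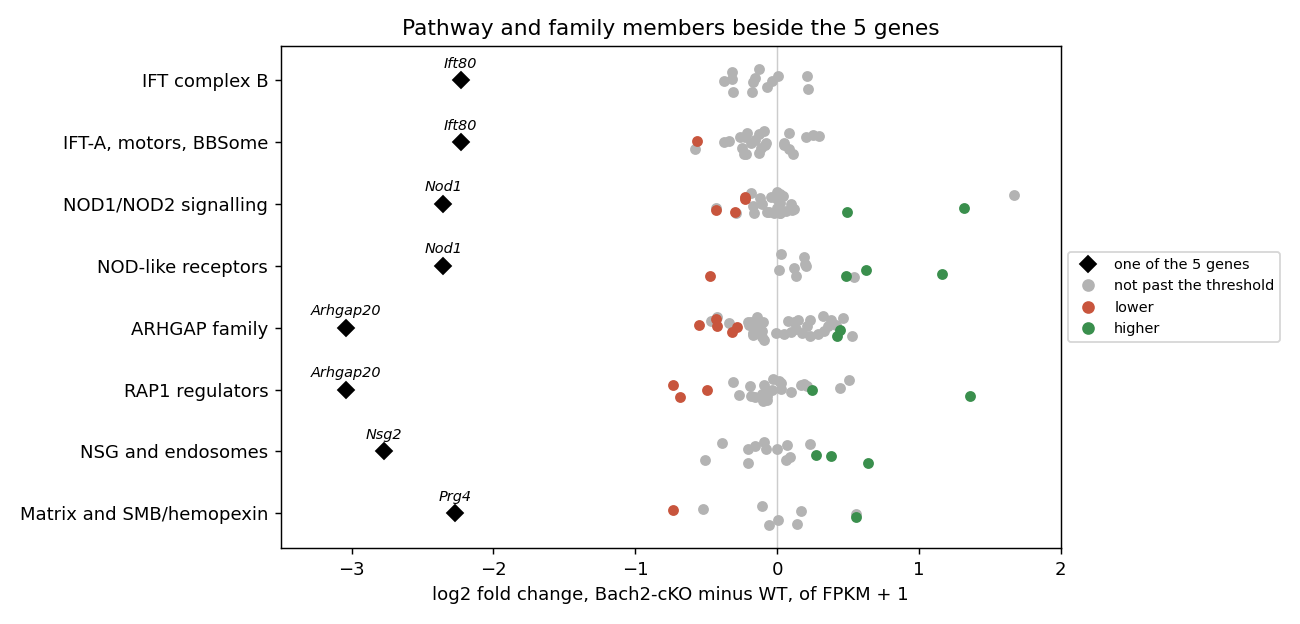
Log2 fold change (Bach2-cKO minus WT, of FPKM + 1) of every tested gene in 8 pathway or family lists, with the related gene of the 5 as a black diamond, red for lower, green for higher and grey for not past the threshold. Each diamond lies left of all other points in its row, and the lowest other point is Agrn at -0.74. The 5 genes were picked for large falls in this contrast, so the place of the diamonds was largely set by that choice.

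The genes with the most similar profile were found by Euclidean distance of centred log2(FPKM + 1) values over the 6 libraries. Arhgap20 and Nsg2 had the same 3, Cecr6, Trpm1 and Gata1, at distances of 0.417, 0.528 and 0.562 from Arhgap20 and 0.399, 0.482 and 0.538 from Nsg2. Gata1, the transcription factor gene of red cells and megakaryocytes, was at 22.0, 20.3 and 18.5 FPKM in WT and at 1.44, 0.907 and 2.02 FPKM in Bach2-cKO. Nod1 was nearest to Dapl1, Prg4 and Itm2a, and Prg4 to Itm2a, Nod1 and Car11. Ift80 was nearest to Gucy1a3 at 0.149, and then to Itm2a at 0.320. Pearson r was 0.982 to 0.999 for these pairs, over 6 libraries that all share the 1 division into groups.

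Read totals were 27697735 to 43884431 per library. Several lists of markers of other cells held genes that differed between the groups. Whether other cells or the Tregs themselves gave these differences was not tested. Of 16 tested B cell markers 7 rose, beside 7.02% of all tested genes, with a summed level of 2793 to 3721 FPKM in WT and 4187 to 5341 FPKM in Bach2-cKO. Of 8 tested CD8 T cell markers 6 rose, of 8 tested plasma cell markers 4, of 4 tested NK cell markers 1, and of 8 tested myeloid and dendritic markers 2 rose and 1 fell. Of 18 tested resting T cell genes 13 fell, beside 8.31% of all tested genes, with a summed level of 1408 to 1592 FPKM in WT and 876.5 to 905.5 FPKM in Bach2-cKO. Of 15 stromal and endothelial markers 12 were below 1 FPKM in every library and 1 of the 3 tested fell, and of 12 neuron and glia markers 7 were below 1 FPKM in every library and 2 of the 5 tested fell. Of 6 tested red cell and platelet markers 1 fell, and of 10 tested T cell and Treg markers 1 rose and 2 fell. With the B cell markers' score per library added to the model, the log2 differences were -2.68 for Arhgap20, -2.61 for Nsg2, -2.17 for Nod1, -2.55 for Prg4 and -2.05 for Ift80. Of the neighbours, relatives and pathway genes named here as rising or falling, only Smc4, 1110032F04Rik and Slc15a3 passed in that fit. Scores were -0.377, 0.025 and -0.328 for WT replicates 1 to 3, against 0.070, 0.424 and 0.186 for Bach2-cKO replicates 1 to 3. No WT score reached a Bach2-cKO score, so that fit could hardly part the score from the group. Differences that lost the call shrank for Trim59 (-0.68 to -0.47) and Gars (0.44 to 0.27), but not for Rassf5 (-0.50 to -0.51) or Ciita (1.16 to 1.23). The part of the other marker lists in the log2 differences was not tested. Foxp3 was at 116.0 ± 10.1 and 123.2 ± 26.5 FPKM, and Bach2, whose deleted part the sources used here do not give, at 107.6 ± 7.11 and 104.7 ± 16.0 FPKM (SD, n = 3 each), so Bach2 does not check the labels and the directions rest on them.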

How the data were processed

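Poly(A) RNA of 6 libraries, 3 WT and 3 Bach2-cKO, was measured. The authors deposited FPKM per gene, and the submitters' processing notes name HISAT2 2.0.5, featureCounts 1.5.0-p3 and the build mm9. Gene positions in the files equal GENCODE M21 (GRCm38) for 45128 of 49326 matched identifiers, so positions are given as GRCm38.

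A gene was tested if 3 or more libraries reached 1 FPKM, on log2(FPKM + 1), with limma 3.58.1 (trend, R 4.3.3) and Benjamini-Hochberg adjustment at 0.05, with no covariate. The test was tried on simulated data. Whole reads were recovered from the FPKM steps for 28530 of 28530 genes above 0 (tolerance 0.001 reads) and used for limma-voom, 1 of 14 alternative settings. A B cell marker score and the replicate number were tried as covariates.

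Named genes are the 5 genes, their tested neighbours within 250 kb, relatives, those past the threshold in each list (up to 6) and the 3 nearest profiles; untested nearest genes are left out, and 1 profile is not reported here. No protein table was used, so relatives came from a list. The 5 genes and the lists were chosen with earlier results of these data known. The condensin list and the 1000 kb window were chosen after the values were seen, as were Ppm1l, Ripk2 and Smc2 as names.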

Additional observations from a re-analysis of the deposited data

How the results depend on the processing

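The 5 genes were lower in all 14 alternative settings, and no result reversed. These settings reuse the libraries in which the 5 genes were picked for their fall, so their direction was largely set in advance. Over single libraries left out, the log2 difference ranged from -3.19 to -2.96 for Arhgap20, -2.83 to -2.66 for Nsg2, -2.48 to -2.23 for Nod1, -2.36 to -2.13 for Prg4 and -2.37 to -2.16 for Ift80. Arhgap20 and Prg4 had the fewest reads: with a pseudocount of 0.1 they were at -3.97 and -2.93, and with limma-voom at -4.14 and -3.02. With the B cell score, Arhgap20, Nsg2 and Prg4 were at -2.68, -2.61 and -2.55. Of all genes, 967 rose and 1144 fell, against 501 and 681 when unfiltered, 74 and 84 under the B cell score, and 492 to 1224 and 560 to 1375 with 1 library left out. The cause of these shifts was not tested.

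Same-numbered libraries of the 2 groups had correlations of -0.053, 0.0058 and -0.21 between their deviations from the group means. Differently numbered pairs ran from -0.13 to 0.18. The values thus show no pairing by number, but with so few libraries they cannot exclude one. With the replicate block 625 genes rose and 657 fell, 3 neighbours fell, and by list 1 gene of NOD signalling fell, 1 endosomal gene rose and 1 fell, and 0 RAP1 genes rose. It changed the call of no neighbour of Ift80 other than Gm17641, Gm20691 and, in the wider window, Ppm1l.

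With the B cell score 0 neighbours rose and 2 fell, 0 relatives fell, 1 gene of NOD signalling rose, and 0 passed in the other list directions that had calls. With no filter 0 NOD-like receptor genes, 1 NOD signalling gene, 1 endosomal gene, 0 RAP1 genes and 2 matrix genes rose, and with a mean of at least 0.5 FPKM 2 matrix genes rose. With median-ratio scaling 2 neighbours and 4 ARHGAP family genes rose. With limma-voom 5 ARHGAP family, 2 matrix and 1 condensin gene rose, and 5 RAP1, 2 complex A, 1 complex B and 1 endosomal gene fell.

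With 1 library left out, 1 to 2 neighbours rose and 3 to 5 fell, and 0 relatives rose and 1 fell. By list, those that rose numbered 0 to 2 (NOD-like receptors), 1 to 2 (NOD signalling), 1 to 3 (endosomal), 0 to 2 (RAP1), 1 to 6 (ARHGAP family), 0 to 4 (condensin) and 1 to 2 (matrix). Those that fell numbered 0 to 1, 1 to 5, 0 to 1, 2 to 4, 2 to 7, 0 and 1 in the same order, and 0 to 2 for complex A and 0 for complex B.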

Other observations

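Slc15a2, a peptide transporter listed with NOD signalling, varied more within the groups than between them. It was at 126.3, 41.3 and 2.04 FPKM in WT replicates 1, 2 and 3 and at 52.7, 63.7 and 151.2 FPKM in Bach2-cKO replicates 1, 2 and 3 (limma adjusted p = 0.395). It was named after its values were seen.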
